A study of Mus musculus with 6 samples.

Results

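The genes described here encode the chains of the interleukin-2 (IL-2), interleukin-15 (IL-15) and interleukin-7 (IL-7) receptors and the cytokine IL-15 itself. They were chosen by name as Il2ra, Il2rb, Il2rg, Il15, Il15ra and Il7r. Of these 6 genes, 5 had a probe set with a single gene symbol among the 19938 genes of the array, and Il2rg was not analysed here. A gene with several probe sets was to be represented by the one with the highest mean over the 6 arrays, but each of the 5 had only 1. The large difference of Il2ra was known when the genes were brought together, so its values are given as a description with no test.

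Cells labelled dendritic were measured on 3 arrays and cells labelled macrophage on 3 more, all unstimulated and all grown out of tibia and femur marrow of C57B/6 mice. All cultures were grown for 6 days with recombinant granulocyte-macrophage colony-stimulating factor (GM-CSF) at 20 ng/ml, so neither population is free of this cytokine. Neither the separation of the populations nor the origin of the replicates in separate mice or cultures is given in the sources used here, and p-values measure only the spread between these arrays, which may be technical. The age of the mice is not given in them either. Arrays numbered 1 stood apart from the others of both populations, and values without them follow the results.

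IL-2 is made mainly by activated T cells and is bound by a receptor of 3 chains. The alpha chain, encoded by Il2ra and known as CD25, raises the affinity for IL-2 but has too short a cytoplasmic tail to signal. Signalling runs through the beta chain Il2rb and the common gamma chain Il2rg, which bind the kinases Jak1 and Jak3 and activate STAT5. IL-15 uses the same beta and gamma chains, and its own alpha chain, Il15ra, holds the cytokine on the surface of the producing cell and presents it to neighbouring lymphocytes. The IL-7 receptor pairs Il7r with the gamma chain, and Il7r pairs with Crlf2 to bind the cytokine TSLP. Activated dendritic cells are known to display CD25 and to present IL-15, and dendritic cells and macrophages are known sources of IL-15.

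Il2ra and Il15ra, the genes with the largest differences of the set, are direct neighbours on mouse chromosome 2. The 250 bases before their annotated starts are shown because the genes lie side by side and were both higher in the dendritic population. The sequences come from RefSeq (GRCm38.p6, plus strand, 5′ to 3′), where 4 of the 6 genes have a promoter window and Il15ra has a pair of starts. Capitals mark matches to a kB consensus (the binding motif of NF-kB), to the STAT motif TTCNNNGAA, to the motif GAAANNGAA of interferon regulatory factors (IRF) or to the AP-1 motif TGANTCA, on either strand.
Il2ra, chr2:11642542-11642791: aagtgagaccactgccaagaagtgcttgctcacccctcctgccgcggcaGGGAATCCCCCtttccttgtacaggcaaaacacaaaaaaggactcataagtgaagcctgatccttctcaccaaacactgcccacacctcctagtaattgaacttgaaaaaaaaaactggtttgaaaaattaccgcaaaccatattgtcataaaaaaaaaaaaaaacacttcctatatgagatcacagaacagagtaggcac
Il15ra, first start, chr2:11705043-11705292: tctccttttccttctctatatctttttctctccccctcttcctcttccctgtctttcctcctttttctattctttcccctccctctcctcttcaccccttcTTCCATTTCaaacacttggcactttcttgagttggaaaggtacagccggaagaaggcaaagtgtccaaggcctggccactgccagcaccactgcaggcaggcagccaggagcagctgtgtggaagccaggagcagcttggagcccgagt
Il15ra, second start, chr2:11705462-11705711: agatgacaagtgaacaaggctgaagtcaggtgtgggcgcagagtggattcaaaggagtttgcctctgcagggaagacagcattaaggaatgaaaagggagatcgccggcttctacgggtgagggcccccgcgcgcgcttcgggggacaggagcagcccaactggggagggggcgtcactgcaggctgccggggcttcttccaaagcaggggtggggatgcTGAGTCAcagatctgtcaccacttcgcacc

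In the Il2ra window the kB consensus matched in a pair of overlapping positions, the first beginning 201 bases before the start. In Il15ra the IRF motif matched 149 bases before the first start and again 31 bases after the second, in transcribed sequence not shown here, and the AP-1 motif matched 30 bases before the second start. The STAT motif matched in none of these 3 windows and once in that of Il7r, 142 bases before its start. No motif was matched in both Il2ra and Il15ra. Of all 32851 promoter windows of 300 bases, 8.46% held the kB consensus, 8.30% the STAT motif, 8.56% the IRF motif and 7.81% the AP-1 motif. The motifs were picked with these sequences in view, and a match describes letters, not binding.

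Il2ra was high in the dendritic arrays and below the median of all genes in the macrophage arrays, while its beta chain was dim in both populations. The IL-15 pair, Il15ra and Il15, was higher in the dendritic population by 7.73-fold and 3.22-fold, and Il7r was bright in both populations. All values are the deposited log2 RMA values, a difference means dendritic minus macrophage on that scale, with its SE, and a gene was called at a limma adjusted p (Benjamini-Hochberg over all 19938 genes) under 0.05. Among the 4 measured genes other than Il2ra, 3 were called, all higher in the dendritic population, beside 9.98% of all genes called higher and 21.6% called in either direction. Every dendritic array lay above every macrophage array for 4 of the 5 genes, Il2ra included, and for 17.3% of all genes, where 34% did not overlap in either direction. In bulk RNA a smaller share of cells with a transcript and less transcript per cell cannot be told apart.

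**Figure D1:**
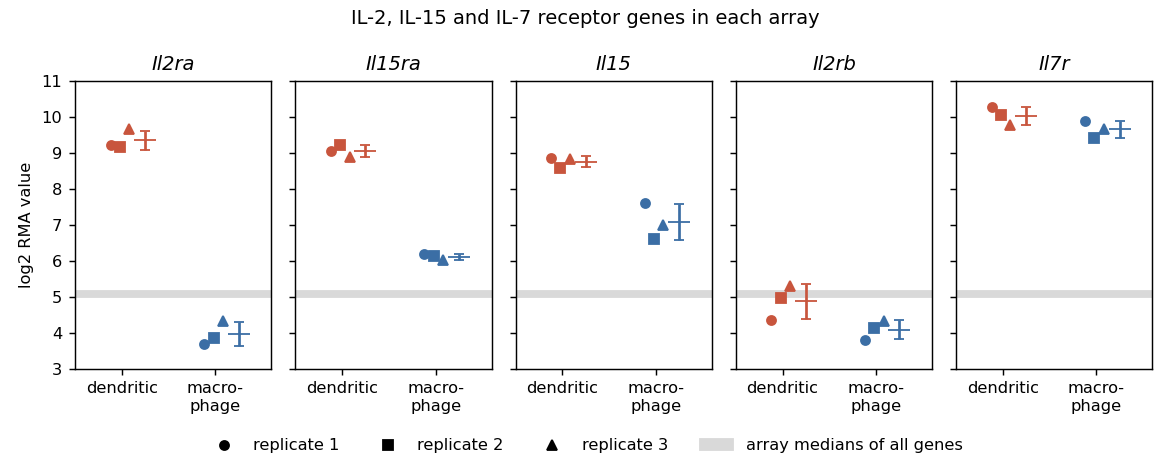
Log2 RMA values (vertical axis) of the 5 measured genes in the dendritic and macrophage arrays. Each symbol is 1 array, with the shape giving its replicate number, and the bars beside them are the mean and SD of 3 arrays. The grey band spans the median of all genes on the 6 arrays (4.99 to 5.16). Il2ra lies above 9 in all dendritic arrays and below the band in all macrophage arrays, Il2rb stays near or below the band in both, and Il7r lies above 9 in both.

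The alpha chain Il2ra (probe set 10469278) had log2 values of 9.23, 9.16 and 9.66 in the dendritic arrays, against 3.70, 3.86 and 4.33 in the macrophage arrays. The populations were separated by 4.83 log2 units between the lowest dendritic and the highest macrophage array, and all macrophage values lay below the median of all genes on an array (4.99 to 5.16). The mean was 9.35 ± 0.27 in dendritic and 3.96 ± 0.33 in macrophage arrays (SD, n = 3 each), which differ by 5.39 log2 units. With no detection calls, it is not known whether the macrophage values lie above background, so no fold is given.

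The beta chain Il2rb (probe set 10430344), the signalling partner of both alpha chains, read 4.36, 4.95 and 5.31 in the dendritic arrays, against 3.79, 4.14 and 4.32 in the macrophage arrays. Only dendritic replicate 3 exceeded the array medians, and the gap between the lowest dendritic and the highest macrophage array was 0.037. The difference was 0.79 ± 0.24 and the call was narrow (limma adjusted p = 0.0464). It was lost in 6 of the 15 alternatives that could test the gene, among them leaving out dendritic replicate 2 (adjusted p = 0.136) or 3 (0.151) and macrophage replicate 1 (0.127), 2 (0.0997) or 3 (0.0580), over a range of 0.00253 to 0.151. The deposited values carry no detection calls, so it is not known whether Il2rb was expressed in either population.

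The high Il2ra signal of the dendritic arrays came with a beta chain that read at most 5.31, and its level beside the gamma chain was not analysed here.

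Il15ra (probe set 10469289), which presents IL-15 to other cells, had log2 values of 9.06, 9.23 and 8.88 in the dendritic arrays, against 6.19, 6.12 and 6.01 in the macrophage arrays. Both populations were tight and well apart, with 2.69 log2 units between them. The difference was 2.95 ± 0.14, or 7.73-fold (limma adjusted p = 1.18e-06). Macrophage values stood above the array medians, while those of Il2ra stood below.

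The cytokine gene Il15 (probe set 10579958) had log2 values of 8.85, 8.59 and 8.84 in the dendritic arrays, against 7.62, 6.60 and 7.01 in the macrophage arrays. The groups did not overlap, and the macrophage arrays were the more spread, with replicate 1 the highest. The difference was 1.69 ± 0.23, or 3.22-fold (limma adjusted p = 0.000793). The log2 ratio of Il15ra to Il15 was 0.30 ± 0.31 in dendritic and -0.97 ± 0.47 in macrophage arrays (SD, n = 3 each). The groups did not overlap in this ratio, which differed by 1.26 (SE 0.33). An exact 2-sided permutation test gave p = 0.1, the smallest that this test can give with 3 arrays against 3. It could not fall below 0.05, so it does not decide whether the ratio differs. The ratio sets different probes against each other and gives no relative level of receptor and ligand.

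Il7r (probe set 10427628), the alpha chain of the receptors for IL-7 and TSLP, read 10.28, 10.05 and 9.78 in the dendritic arrays, against 9.90, 9.42 and 9.67 in the macrophage arrays. All 6 arrays were far above the array medians and the groups overlapped. The difference of 0.37 ± 0.18 was not called (limma adjusted p = 0.194), with a 95% interval from -0.02 to 0.77, so a dendritic excess of up to 0.77 log2 units is within the error. It was called in 0 of 16 alternatives.

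Of the other genes of the pathway, 58 of 62 listed were measured. In the dendritic population 21 were higher, 9 were lower and 28 were not called. This is 51.7% called, beside 21.6% of all genes, and the median difference was 0.19 against 0.03 for all genes. The 21.6% includes dim genes, which gave few of the calls. With genes under the median of level left out, 1840 genes were higher and 2207 lower, where all 19938 genes gave 1990 and 2322. The share called among brighter genes was thus well above 21.6%. Outside the gamma chain cytokines and TSLP, at most 1 gene of any pathway group stayed below the array medians on every array. The pathway list was not compared with genes of like level, so the 51.7% is not read as an excess. That list also holds signalling genes of other cytokines and was chosen with earlier results known. The plot of differences by gene group shows them with the receptor genes.

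**Figure D2:**
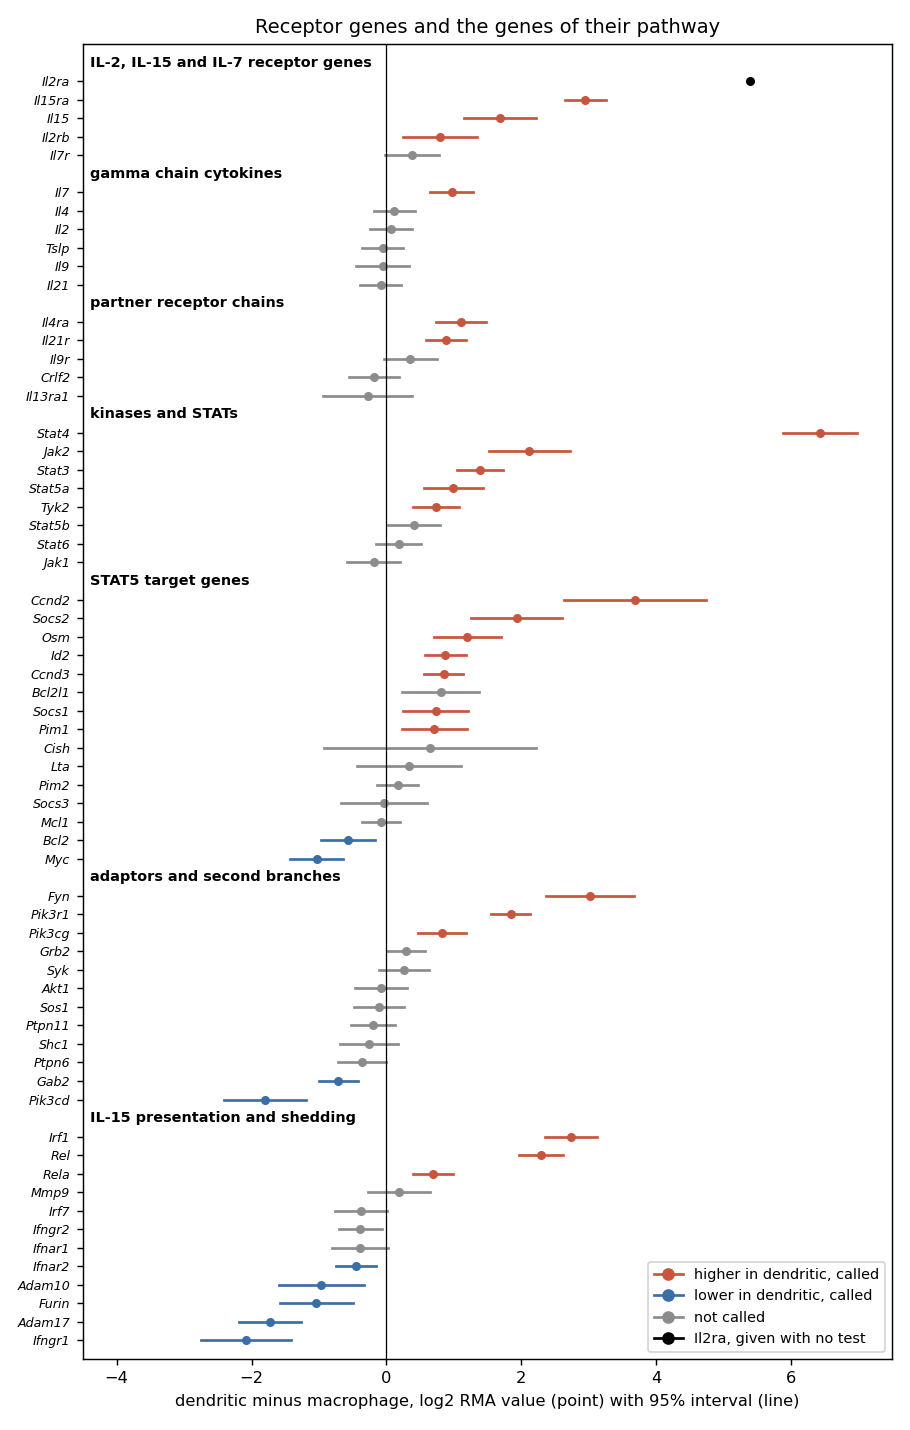
Difference of the dendritic minus the macrophage mean (horizontal axis, log2 RMA value) for the 5 receptor and cytokine genes and 58 genes of their pathway, grouped by role. Points are differences, lines are 95% intervals, and colours mark genes called higher, called lower and not called, with Il2ra in black and without an interval. Il2ra and Stat4 are the only points above 5, the cytokine genes other than Il7 lie near 0, and the sheddases Adam17 and Adam10 lie below 0.

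Apart from Il15, the cytokines that act through the gamma chain, and TSLP, were dim throughout. All 6 genes of this group, which leaves out Il15, stayed below the median of all genes on every array, and 1 was called. Il2 itself read 2.91, 3.22 and 3.26 in the dendritic arrays, against 3.13, 3.09 and 2.97 in the macrophage arrays, which overlap (difference 0.07 ± 0.14, limma adjusted p = 0.835). Il7 was the called gene, at 4.10, 3.84 and 3.92 in the dendritic arrays, against 3.17, 2.92 and 2.85 in the macrophage arrays (0.97 ± 0.14, limma adjusted p = 0.000988). Tslp, the other ligand that uses Il7r, differed by -0.06 ± 0.13 (limma adjusted p = 0.869).

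Of the 3 receptor chains that join the gamma chain for other cytokines, Il4ra, Il21r and Il9r, the first pair was higher in the dendritic population and Il9r was not called (0.36 ± 0.18, limma adjusted p = 0.221). Il4ra, the IL-4 receptor alpha chain, averaged 9.66 ± 0.11 in dendritic and 8.56 ± 0.29 in macrophage arrays (SD, n = 3 each), a difference of 1.10 ± 0.16 (limma adjusted p = 0.00115). Il21r, the IL-21 receptor, differed by 0.88 ± 0.13 (adjusted p = 0.00106). Crlf2, the partner of Il7r in the TSLP receptor, differed by -0.18 ± 0.17 and was not called (limma adjusted p = 0.571), at 6.57 in dendritic and 6.75 in macrophage arrays. Il13ra1, which pairs with Il4ra in the IL-13 receptor, was not called either (-0.28 ± 0.29, adjusted p = 0.640).

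Of the Janus kinases and STAT factors, 5 of 8 measured were higher and none was lower, beside 9.98% and 11.6% of all genes. Stat4, which carries interleukin-12 signals, had the largest difference (6.43 ± 0.24), followed by the GM-CSF receptor kinase Jak2 (2.12 ± 0.27) and by Stat3 (1.39 ± 0.15). Jak1, the kinase bound by Il2rb and by Il7r, was bright and not called, at 9.05 in dendritic and 9.24 in macrophage arrays (-0.19 ± 0.17, limma adjusted p = 0.572). Jak3, the kinase of the gamma chain, shares its probe set with another gene and was not analysed here. Of the STAT5 genes, Stat5a read 7.47, 8.06 and 8.10 in dendritic arrays, against 6.69, 6.91 and 7.07 in macrophage arrays (0.99 ± 0.19, limma adjusted p = 0.00538). Stat5b differed by 0.41 ± 0.17 and was not called (limma adjusted p = 0.142). It was called in 2 of 16 alternatives, with a lowest limma adjusted p of 0.0186. A fit that blocks on the replicate number was among these (limma adjusted p = 0.0296).

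Genes known to be induced by STAT5 were higher in 7 of 15 cases and lower in 2, beside 9.98% and 11.6% of all genes. The count of higher genes ran from 5 to 9 over the alternatives. It was 5 with all probe sets, and without dendritic replicate 2 or 3 or macrophage replicate 1 or 3. The calls of Socs1 and Pim1 were narrow (limma adjusted p = 0.0395 and 0.0420) and held in 11 and 10 of 16 alternatives. STAT5 target genes respond to GM-CSF, present in all cultures, as well as to IL-2, IL-15 and IL-7. The cyclin Ccnd2 read 8.12, 9.91 and 9.97 in dendritic arrays, against 5.16, 5.62 and 6.15 in macrophage arrays, a difference of 3.69 ± 0.47 (limma adjusted p = 0.000438). The feedback inhibitor Socs2 differed by 1.93 ± 0.29 and the cytokine Osm by 1.20 ± 0.22 (adjusted p at most 0.00381). The proto-oncogene Myc was lower (-1.03 ± 0.17, limma adjusted p = 0.00228), as was the survival gene Bcl2 by a narrow margin (-0.57 ± 0.18, adjusted p = 0.0495), a call kept in 7 of 15 alternatives and lost without any single array other than macrophage replicate 1. Cish, an immediate feedback target of STAT5 named after its values were seen, read 7.26, 8.77 and 8.77 in dendritic and 5.92, 8.87 and 8.07 in macrophage arrays. It was not called (0.65 ± 0.69, limma adjusted p = 0.653), and its difference was -0.20 without macrophage replicate 1.

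In the adaptors and kinases of the other signalling branches, 3 of 12 measured genes were higher and 2 lower, beside 9.98% and 11.6% of all genes. The Src kinase Fyn (3.02 ± 0.29), the phosphoinositide 3-kinase (PI3K) regulatory subunit Pik3r1 (1.84 ± 0.13) and the catalytic subunit Pik3cg (0.83 ± 0.16) were higher. The catalytic subunit Pik3cd (-1.80 ± 0.27) and the adaptor Gab2 (-0.71 ± 0.13) were lower, with limma adjusted p at most 0.00478 for these 5 genes. The subunits of PI3K thus differed in direction between the populations.

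Regulators known to induce Il15 or Il15ra, together with proteases that can shed or process receptors, were higher in 3 of 12 measured cases and lower in 5. Of all genes, 9.98% were called higher and 11.6% lower. Irf1, an interferon-induced factor known to drive Il15, differed by 2.73 ± 0.17 (limma adjusted p = 6.38e-06), and the NF-kB subunits Rel by 2.29 ± 0.15 and Rela by 0.69 ± 0.13. Adam17, a sheddase known to release IL-15 receptor alpha from cells, was lower (-1.73 ± 0.20, limma adjusted p = 0.000273), as were the processing protease Furin (-1.04 ± 0.24, not called without macrophage replicate 3) and the interferon gamma receptor chain Ifngr1 (-2.08 ± 0.30). The count of lower genes in this group was 3 when all probe sets were tested, and also 3 when replicate 2 or 3 of the dendritic arrays or replicate 1 or 3 of the macrophage arrays was left out. Adam10 and Ifnar2, the lower genes not yet given, differed by -0.96 ± 0.28 and -0.45 ± 0.13 (limma adjusted p = 0.0373 and 0.0344), and their calls held in 11 and 7 of 16 alternatives. The Adam10 call was lost without replicate 2 or 3 of the dendritic or replicate 1 or 2 of the macrophage arrays, and that of Ifnar2 without any single array other than macrophage replicate 2.

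The neighbours of Il2ra and Il15ra were read in the RefSeq gene order (GRCm38.p6, names only). The 4 consecutive protein-coding genes Pfkfb3, Rbm17, Il2ra and Il15ra were all higher in the dendritic population, by 2.34 ± 0.35 for Pfkfb3, which makes the activator of phosphofructokinase, and by 0.82 ± 0.19 for the splicing factor Rbm17 (limma adjusted p = 0.00115 and 0.0115). The Rbm17 call was lost without macrophage replicate 2 (limma adjusted p = 0.0522). The genes outside this run, Prkcq (0.21 ± 0.14) and Fbh1 (-0.06 ± 0.14), were not called. A run of this kind also lay around the neighbours Il4ra and Il21r on chromosome 7, where Nsmce1 was higher by 1.46 ± 0.14 (limma adjusted p = 6.98e-05) and Gtf3c1 was not called (0.23 ± 0.12, adjusted p = 0.274). Beside other receptor genes, C1qtnf6 next to Il2rb was higher (0.95 ± 0.18, limma adjusted p = 0.00432), as was Capsl next to Il7r (0.71 ± 0.14, adjusted p = 0.00517). On the other sides, Tmprss6 next to Il2rb (0.22, limma adjusted p = 0.594) and Spef2 next to Il7r (-0.13, adjusted p = 0.634) were not called. Rac2, further along from Il2rb, was lower (-2.10 ± 0.18, limma adjusted p = 3.88e-05). Of all genes, 9.98% were called higher and 21.6% in either direction. Beside Il15 on chromosome 8, Inpp4b (0.01, limma adjusted p = 0.974) and Zfp330 (-0.14 ± 0.14) were not called. Rnf150, the gene after Zfp330, was lower (-1.05 ± 0.22, limma adjusted p = 0.00751). The neighbours were named after their values were seen.

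**Figure D3:**
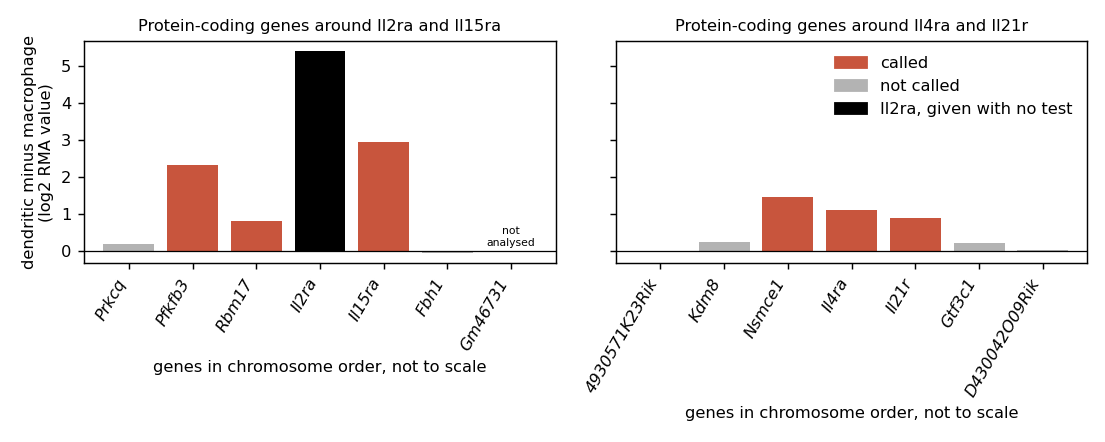
Difference of the dendritic minus the macrophage mean (vertical axis, log2 RMA value) for protein-coding genes in RefSeq order around Il2ra and Il15ra (left) and around Il4ra and Il21r (right). Bars start at 0, coloured bars are called genes, grey bars are not called, and Il2ra is black. On the left Pfkfb3, Rbm17, Il2ra and Il15ra stand above 0 with Prkcq and Fbh1 near 0, and on the right Nsmce1, Il4ra and Il21r stand above their neighbours.

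Likeness to each gene was measured as the root mean square distance of mean-centred log2 values over the 6 arrays, where a small distance means a like size of difference and like deviations of single arrays. Nearest to Il2ra were Ramp3 (distance 0.126), Sema7a (0.219), Mmp25 (0.241), Il12b (0.271) and Ccr7 (0.276). Ramp3 modifies calcitonin-family receptors, Sema7a is a membrane-anchored semaphorin, Mmp25 a membrane-anchored metalloproteinase, Il12b the p40 subunit of interleukins 12 and 23, and Ccr7 the lymph node homing receptor. Nearest to Il15ra were Heatr9 (0.0740), Samsn1 (0.0964) and the inhibitor of apoptosis Birc2 (0.138), and nearest to Il15 were Zc3h12d (0.134), Carmil1 (0.142) and the phosphatase Phlpp1 (0.183). Il2rb was most like Rnf24 (0.101), Sema3f (0.108) and Pigyl (0.113), and Il7r most like Rad52 (0.0674), Taf15 (0.0682) and Rprd2 (0.0783). With 3 arrays a population, all genes of a like difference come close by this measure.

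The labels were checked against marker genes. Macrophage markers were lower in the dendritic population in 11 of 11 measured cases, beside 11.6% of all genes. Dendritic markers were higher in 8 of 12, beside 9.98% of all genes, among them Flt3 (4.70 ± 0.14) and Zbtb46 (1.82 ± 0.15). The other higher ones were Fscn1 (6.45 ± 0.12), Ccr7 (5.30 ± 0.26), Cd83 (4.50 ± 0.16), Dpp4 (3.21 ± 0.31), Relb (3.005 ± 0.143) and Cd86 (1.61 ± 0.21). Fscn1 had the largest difference of all genes. The integrin chain Itgax (CD11c), often used to mark dendritic cells, was the exception called lower (-2.52 ± 0.44, limma adjusted p = 0.00285). The dendritic markers not called were H2-Ab1 (-0.39 ± 0.13), H2-Eb1 (-0.13 ± 0.14) and Cd74 (-0.23 ± 0.12), with limma adjusted p of 0.0745, 0.638 and 0.255. The activation state of the cells labelled dendritic was not tested.

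Lymphocytes also carry these receptors, so their markers were read beside the receptor genes. Of 15 T cell markers 2 were higher and 1 was lower, beside 9.98% and 11.6% of all genes. The higher ones were Cd8a (2.81 ± 0.13), also known on a class of dendritic cells, and the costimulatory receptor Icos (2.80 ± 0.21), and the lower one was Cd28 (-2.18 ± 0.44). The T cell receptor complex genes Cd3d, Cd3e and Cd3g, defining for T cells and named after their values were seen, were not called (limma adjusted p at least 0.814). Cd3g averaged 3.53 in dendritic and 3.58 in macrophage arrays and Cd3e 5.45 and 5.35, and Cd3d, like Cd3g, stayed below the array medians on all 6 arrays. The T cell marker Thy1 averaged above the array medians, at 6.49 in dendritic and 6.24 in macrophage arrays. It was not called (0.25 ± 0.58, limma adjusted p = 0.872). In all, 6 of the 15 stayed below the array medians on every array. The summed signal of the T cell list, on the linear scale, was 616 to 887 in dendritic and 459 to 606 in macrophage arrays.

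Of 13 measured natural killer (NK) and innate lymphoid markers, 2 were higher in the dendritic population and none lower, beside 9.98% and 11.6% of all genes. The higher ones were the receptor genes Klrd1 (3.54 ± 0.50) and Klrk1 (3.50 ± 0.24, limma adjusted p = 1.14e-05). The defining NK genes Ncr1, Klrb1c and Eomes, named after their values were seen, averaged 2.99, 3.04 and 3.30 in dendritic and 2.82, 3.20 and 3.33 in macrophage arrays. In all, 10 of the 13 stayed below the array medians on every array. The summed linear signal of this list was 484 to 865 in dendritic and 199 to 230 in macrophage arrays.

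**Figure D4:**
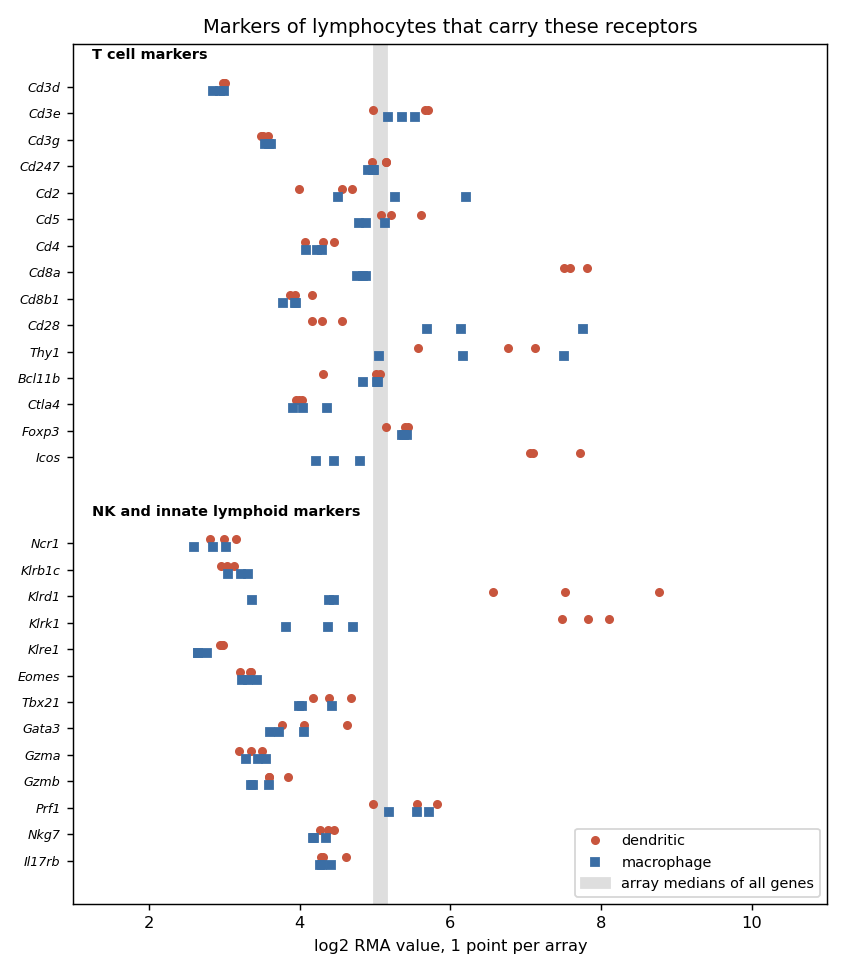
Log2 RMA values (horizontal axis) of markers of T cells and of NK and innate lymphoid cells, with 1 point per array, dendritic above macrophage for each gene. The grey band spans the median of all genes on the 6 arrays. Cd8a, Icos, Klrd1 and Klrk1 stand to the right in all dendritic arrays and Cd28 in the macrophage arrays, while Cd3d, Cd3g, Ncr1, Klrb1c and Eomes stay left of the band in both populations.

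Markers of other cells that could be present were read as well, beside 9.98% of all genes called higher and 11.6% called lower. In B cells, some of whose precursors carry Il7r, 2 of 11 measured markers were higher and 1 was lower, Cd22 (-1.47 ± 0.12). The higher ones were Igll1 (0.53 ± 0.15) and the immunoglobulin-associated chain Cd79a (0.81 ± 0.19, not called without dendritic replicate 2 or macrophage replicate 2). Cd79a averaged 3.95 in dendritic and 3.14 in macrophage arrays and stayed below the array medians on every array. Cd79b, Ms4a1, Pax5 and Ebf1 were not called (limma adjusted p at least 0.46). None of 10 mast cell and basophil markers was called, and 1 of 10 stromal and endothelial markers was lower, the leptin receptor Lepr (-2.58 ± 0.21). Of 7 plasmacytoid dendritic cell markers 2 were higher, Bst2 (1.89 ± 0.20) and Pacsin1 (1.59 ± 0.15). Siglech, Tcf4, Ccr9, Ly6d and Cox6a2 were not called (limma adjusted p at least 0.64). Siglech averaged 4.60 in dendritic and 4.49 in macrophage arrays. Bst2 averaged 11.07 and 9.18, and it gave most of the summed signal of this list. The summed linear signals in dendritic and macrophage arrays were 277 to 350 and 318 to 326 for B cells, 212 to 276 and 179 to 231 for mast cells and basophils, 210 to 269 and 242 to 339 for stroma, and 2443 to 2922 and 802 to 1089 for the plasmacytoid list. The part of any of these cells in the receptor values was not tested.

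Arrays numbered 1 stood apart in both populations. Of 11 neutrophil markers, none was higher in the dendritic population and 1 was lower, beside 9.98% and 11.6% of all genes. The lower one was the granule peroxidase Mpo (-0.74 ± 0.19, limma adjusted p = 0.0207). That call was lost in 7 of 16 alternatives, among them leaving out replicate 1 or 2 of the dendritic arrays or replicate 1 or 3 of the macrophage arrays. Of the same markers, 8 were highest in replicate 1 of both populations, beside 17.3% of all genes, and Retnlg, named after its values were seen, read 7.43, 4.33 and 4.32 in dendritic and 7.39, 4.31 and 4.25 in macrophage arrays. The summed linear signal of the list was 2185 to 5479 in dendritic and 2466 to 6148 in macrophage arrays. Il15 and Il7r were also highest in replicate 1 of both, and Il2rb was lowest there. Of the 15 STAT5 target genes, 10 were lowest in replicate 1 of both, Cish and Ccnd2 among them, beside 29.5% of all genes.

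Without replicate 1 in both populations, the differences of the receptor genes were close to those over all arrays. They were 5.32 for Il2ra, 2.99 for Il15ra (limma adjusted p = 4.13e-06), 1.91 for Il15 (7.89e-05), 0.90 for Il2rb (0.00366) and 0.37 for Il7r (0.136). That of Cish was 0.30 (adjusted p = 0.454). The plot of single arrays by replicate number shows these genes.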

How the data were processed

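RNA of 6 samples was measured on Affymetrix Mouse Gene 1.0 arrays. The deposited values are log2 expression made by the authors; the submitters' processing notes name RMA (background correction, quantile normalization and probe set summary) and R 3.0.2. Build, filters and probe set definition: not given in the sources used here. Depth has no counterpart on arrays, and the number of arrays limits the precision.

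Of 35556 probe sets, 21789 had 1 symbol in the platform's gene table, 1621 several and 12146 none listed. The probe set with the highest mean stood for a gene (19938 genes). limma 3.58.1 in R 4.3.3 (lmFit, eBayes, 2-sided) was fitted to all 6 arrays with population as the only term, no filter and Benjamini-Hochberg adjustment over all genes. The fit was tested on simulated data with the level and spread of these genes. It recovered 1 of 67 genes changed by 0.5 log2 units, 36 of 67 changed by 1.0 and 63 of 66 changed by 2.0. There were 4 false calls. Small differences that were not called may thus have been missed.

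The genes, lists and alternatives were chosen with earlier results of these data known. Named genes are the receptor genes with their ligands and kinases, and the nearest genes by likeness. Up to 3 called genes per direction of each pathway list are also named. Marker genes were picked as 2 per list by level and 2 by difference, but not all of these are given above. Others are named as examples or were chosen after their values were seen. Same-numbered arrays deviated together from their population means (correlations 0.385, 0.147 and 0.272 over genes). Dendritic replicate 2, however, correlated as much with macrophage replicate 3 (0.155). What the numbers in the titles mark is not given, so the main fit did not pair the arrays. The number served as a block in an alternative only. Tables and figures were made with Python 3.11.15, pandas 2.3.3, scipy 1.17.1 and matplotlib 3.10.9.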

Additional observations from a re-analysis of the deposited data

How the results depend on the processing

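The 16 alternatives were the replicate number as a block, renewed quantile normalization, centring on the 75th percentile, filters at the 30th percentile and the median of level, the mean of a gene's probe sets, all probe sets, a variance trend with robust estimation, array weights, leaving out each array, and leaving out replicate 1 of both populations. Il15ra and Il15 were called higher in all 16, and Il7r in none. Il2rb kept its direction, with 0.79 when all probe sets were tested (limma adjusted p = 0.112). With single arrays left out, the differences ranged from 0.57 to 1.05 for Il2rb, 5.23 to 5.57 for Il2ra, 2.86 to 3.04 for Il15ra, 1.45 to 1.96 for Il15 and 0.25 to 0.50 for Il7r. The filter at the median of level left Il2rb out. The replicate block changed no call of the receptor genes, added those of Stat5b and Rad52 among the genes named above, and gave 2429 genes higher and 2778 lower, where the fit without it gave 1990 and 2322. Pathway genes called ranged from 19 to 25 higher and 6 to 10 lower. Of 1746 values of other named genes under alternatives, 1673 stayed on their side of the threshold, 49 lost and 24 gained a call, and 0 reversed a called direction; the cause was not tested. With 3 arrays a population and no detection calls, small differences of dim genes such as Il2rb cannot be settled.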
